A study of Mus musculus with 50 samples.

Results

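The accessible sites described here lie in the gene-poor stretches of the mouse autosomes. The merged peaks of the count table were assigned to 1 Mb bins by their start, and a bin was kept when it held at most 2 starts of protein-coding genes (GRCm38) and at least 20 peaks. This gave 501 bins with 24177 peaks, which is 17% of the 142149 autosomal peaks and part of 144465 peaks in all. Of these bins, 123 held no gene start, 218 held 1 and 160 held 2, so that the 501 bins together held 538 of 20665 gene starts. A bin held between 20 and 169 peaks, with a median of 41, against a median of 72 in the other bins with at least 20 peaks. The rule used gene positions and peak positions but no read count. At its edge, 16 of the kept bins had exactly 20 peaks and 24 bins with 19 peaks were left out, while 163 bins had 3 gene starts.

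The peaks came from ATAC-seq, in which a transposase cuts and tags accessible DNA, on NeuN+ nuclei from the ventral hippocampus. The animals were male C57BL/6JRj mice. The mice were offspring of dams from a single breeder that gave birth in 1 of 5 rearing facilities (RF1 to RF5). At TP1 the mice were 8 weeks old and were killed in their RF, and at TP2 they were 14 weeks old and were killed in a single test laboratory. The TP2 mice were test-naïve littermates of the TP1 mice. There were 5 libraries, each from 1 mouse, for each RF at each TP, 50 libraries in all, and every group was otherwise untreated. No RF served as a control. NeuN marks nuclei of most neurons, so that each library averages over neuron classes. Rearing and the place of killing cannot be told apart at TP1, and TP cannot be told apart from age, move or amplification and sequencing batch.

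Summed over all peaks, the libraries held 33663505 to 77396321 counts at TP1 and 5111223 to 36401717 counts at TP2. The smallest library was RF1 replicate 3 at TP2, followed by RF2 replicate 3 at TP2 with 7287029 counts. Among the 50 same-group pairs of libraries at each TP, 7 at TP1 and 13 at TP2 were near-identical, as were 7 of 250 pairs from different RFs at TP2. A pair was so called when its mean squared difference was within 1.02 times a sampling variance set at 2 times the binomial one. Such pairs can thus differ by more than binomial sampling. The rule used 16647 peaks with mean counts of 500 to 5000. Counted as 1 sample each, the near-identical libraries left, in the order of RF numbers, 5, 5, 3, 4 and 4 samples per RF at TP1 and 5, 3, 3, 3 and 4 at TP2. The labels give each library as a separate mouse, so the fits kept all of them, and the shares of peaks called with these libraries summed are given beside those that moved by over 1.5 times. At TP2, RF1 replicates 3 and 5 and RF2 replicate 5 stood apart from the rest of their groups in earlier results, and values without them are given where they differ. The title numbers of RF1 replicate 5 and RF2 replicate 5 break the running order of the titles, as do those of RF5 replicates 1 and 5. Both RF1 replicate 5 and RF2 replicate 5 had 12.2% of their autosomal counts in gene-poor bins, against 12.3 to 12.6% in RF5 at TP2. Whether any label is wrong was not tested. Promoter peaks were found for 3 of 5 general neuron markers, and their mean signal, 13.1 or more CPM per kb in every library, exceeded that of every glial and endothelial list, which reached at most 4.77. The excitatory list (3 of 5 markers) had 7.51 or more. The inhibitory list (4 of 6 markers) had only 2.23 to 4.47, in the range of the glial lists, so that these levels do not separate all neurons from glia.

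Megabases without genes are usually compacted in the nucleus, lie in AT-rich, late-replicating DNA and often touch the nuclear lamina. In the brain they also carry some of the longest genes, which code for adhesion molecules and channels of the synapse, and the distal enhancers of developmental transcription factors. Accessible sites there are mostly distal elements rather than promoters. The few promoters present belong in large part to genes with CpG islands.

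Among the 420 protein-coding genes with a known strand whose start fell in these bins, the 300 bases from 250 before to 50 after the start had a median GC content of 59.5%, against 56.7% over all 16457 autosomal promoters in the RefSeq table (GRCm38.p6). They held a median of 17 CG dinucleotides, against 14. As many of them held as lacked the GC box GGGCGG, searched on both strands, which 47.3% of all promoters held. The CCAAT box (CCAAT, both strands) was found in 37.6% against 39.0%. The cAMP response element TGACGTCA was found in 2.62% against 2.42%, the E-box CACGTG in 6.90% against 7.96% and the palindromic NRF1 element in 0.952% against 1.36%. Searched on both strands, GGGCGG and CCAAT can share up to 2 bases where they adjoin, and a match is a description only. The promoters of 4 genes are shown because the largest promoter differences at TP1 (Nr2f1, Atp2b1, Arrdc3) and a wide difference at TP2 (Sall1) were measured there, and Sall1 was picked from the 8 widest after its values were seen. Capitals mark GGGCGG or CCAAT or their reverse complements. Each sequence runs 5′ to 3′ along the gene.
Nr2f1 promoter, chr13:78198824-78199123, minus strand: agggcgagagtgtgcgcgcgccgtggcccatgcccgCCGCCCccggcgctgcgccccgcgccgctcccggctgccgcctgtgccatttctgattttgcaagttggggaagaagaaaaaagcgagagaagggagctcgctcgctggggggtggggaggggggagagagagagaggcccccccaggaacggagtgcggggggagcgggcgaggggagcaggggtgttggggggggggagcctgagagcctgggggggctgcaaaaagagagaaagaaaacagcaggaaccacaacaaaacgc
Atp2b1 promoter, chr10:98914392-98914691, plus strand: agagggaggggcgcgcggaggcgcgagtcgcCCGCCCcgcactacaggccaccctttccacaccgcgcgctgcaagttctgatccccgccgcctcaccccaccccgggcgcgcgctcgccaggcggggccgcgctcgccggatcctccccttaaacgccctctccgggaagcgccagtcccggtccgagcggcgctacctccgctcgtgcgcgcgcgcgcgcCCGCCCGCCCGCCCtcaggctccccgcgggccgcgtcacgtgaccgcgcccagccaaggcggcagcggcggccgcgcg
Arrdc3 promoter, chr13:80883134-80883433, plus strand: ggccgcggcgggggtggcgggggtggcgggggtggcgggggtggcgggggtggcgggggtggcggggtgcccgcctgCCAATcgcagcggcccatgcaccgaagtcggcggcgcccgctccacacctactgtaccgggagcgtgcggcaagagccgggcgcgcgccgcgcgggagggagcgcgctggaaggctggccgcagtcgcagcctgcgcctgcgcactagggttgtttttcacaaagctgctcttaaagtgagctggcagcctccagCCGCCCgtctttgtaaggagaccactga
Sall1 promoter, chr8:89044113-89044412, minus strand: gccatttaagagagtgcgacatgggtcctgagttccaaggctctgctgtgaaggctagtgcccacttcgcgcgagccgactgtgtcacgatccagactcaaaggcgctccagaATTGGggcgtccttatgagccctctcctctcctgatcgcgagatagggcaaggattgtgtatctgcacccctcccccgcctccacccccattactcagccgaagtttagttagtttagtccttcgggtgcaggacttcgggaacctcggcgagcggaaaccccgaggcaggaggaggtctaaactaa
The Atp2b1 window had the highest GC content of the 4, at 79.3% with 54 CG dinucleotides and 4 matches of the GC box, while Sall1 had 57.3% and none.

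The peaks in gene-poor bins were distal, slightly narrower and weaker than the other autosomal peaks. Their median width was 1384 bp against 1535 bp, and their median distance to the nearest gene start was 217816 bp against 33793.5 bp. Within 2 kb of a start lay 476 of them (1.97%), against 11.1% of the others. Inside a gene body lay 54.8% of the peaks, against 62.5% of the others. Genes longer than 500 kb held 7502 of them (31.0%), against 4.63% of the others, so that gene-poor bins had 7502 of all 12959 such peaks. The median signal per peak at TP1 was 2.84 CPM (counts scaled to 1000000 per library), against 4.17 CPM. All 10 groups called 29.7% of these peaks, against 39.6% of the others, and a single group called 18.7%, against 15.9%. The genes that held most of them were Rbfox1 (212 peaks), a splicing regulator of neurons, Tenm2 (200) and Lsamp (175), which are adhesion molecules, Csmd1 (197), a complement-regulating membrane protein, and Dlg2 (148), a scaffold of the postsynaptic density.

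Whether accessibility differed between RFs was tested at each TP in 1 edgeR fit over all peaks, and RF dependence was called at an FDR (Benjamini-Hochberg) below 0.01. In gene-poor bins 13092 of 24174 tested peaks (54.2%) depended on RF at TP1, against 59.1% of all tested peaks and 71.3% of the peaks in 400 gene-rich bins with at least 15 gene starts. At TP2 it was 7076 of 24173 peaks (29.3%), against 30.8% of all and 43.8% in gene-rich bins. For a pair of RFs, a differentially accessible region (DAR) had to pass the same FDR and differ by 0.5 or more on the log2 scale. On that rule 10235 peaks (42.3%) were a DAR in at least 1 of the 10 pairs of RFs at TP1, against 38.6% of all peaks and 40.5% in gene-rich bins. At TP2 it was 6168 (25.5%), against 21% of all peaks and 26.3% in gene-rich bins. The share in gene-poor bins thus lay above that of all peaks at both TPs, but below that of gene-rich bins at TP2. The share called at TP2 depended on the libraries. Without the 3 libraries that stood apart, the RF effect reached 49.7% of the peaks and a DAR in at least 1 pair 42.2%, and with near-identical libraries summed the values were 13.5% and 16.5%. Leaving out replicate 2 of every RF gave 13.7% for the RF effect at TP2, and leaving out replicate 5 gave 37.8%.

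In the pairs with most DARs, those of gene-poor bins ran mostly in 1 direction. At TP1, most DARs of the 4 pairs with RF1 were higher in RF1. Between RF1 and RF3, 21.3% of the peaks were higher in RF1 and 2.34% were lower, whereas over all peaks the shares were 10.6% and 9.5%. For RF1 and RF5 they were 25.1% and 3.01%, against 12.9% and 9.52% over all peaks. For RF1 and RF4 they were 17.7% and 2.92%, against 11.4% and 8.69%, and for RF1 and RF2 5.48% and 0.554%, against 2.74% and 1.54%. The median log2 difference of the peaks was 0.26 for RF1 over RF3, 0.24 for RF1 over RF5, 0.16 for RF1 over RF4 and 0.13 for RF1 over RF2, while all peaks had medians of 0.01 or less in these pairs. The peaks of gene-rich bins had medians of −0.29, −0.26, −0.20 and −0.15 in the same pairs. These 4 comparisons share the RF1 libraries.

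Among the pairs without RF1 at TP1, RF2 and RF5 held most DARs. They differed at 7.67% of the peaks, which is more than the 6.04% of RF1 and RF2, against 6.0% of all peaks, and 1466 of these DARs were higher and 387 lower in RF2. DARs in either direction made up 4.25% for RF4 and RF5, against 4.35% of all peaks, and 4.15% for RF3 and RF5, against 4.0%. For RF2 and RF4 it was 2.86%, against 2.78%, for RF2 and RF3 2.32%, against 2.16%, and for RF3 and RF4 1.33%, against 1.95%. With near-identical libraries summed, the shares were 0.662% for RF3 and RF4, 0.637% for RF2 and RF3 and 2.46% for RF3 and RF5.

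At TP2 the direction between RF1 and RF3 was the opposite one. Of the peaks in gene-poor bins 0.612% were higher in RF1 and 12.2% were lower, against 4.54% and 5.59% of all peaks, and the median log2 difference was −0.23, against −0.01 over all peaks and 0.26 in gene-rich bins. Without the 3 libraries the median was −0.31 and the DARs in either direction made up 26.8% in place of 12.9%. RF3 was also higher than RF4, with 14.8% of the peaks higher and 0.819% lower, against 6.62% and 4.48% of all peaks, and a median of 0.24, against −0.28 in gene-rich bins. No library that stood apart is in this pair, but summing near-identical libraries lowered its DARs to 8.64% from 15.6%. Most DARs of RF5 with RF1 and RF4 were higher in RF5. Between RF1 and RF5 0.935% of the peaks were higher in RF1 and 4.91% lower, against 3.34% and 2.44% of all peaks, and between RF4 and RF5 0.513% were higher in RF4 and 4.74% lower, against 2.83% and 2.45%. DARs in either direction fell to 3.71% from 5.85% for RF1 and RF5, and to 1.82% from 5.25% for RF4 and RF5, when near-identical libraries were summed. Without the 3 libraries they made up 20.2% for RF1 and RF5.

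In the fit of all libraries the other pairs at TP2 had fewer DARs, and their shares depended on the libraries. In either direction RF2 and RF3 differed at 3.02% of the peaks, against 2.56% of all peaks, RF1 and RF2 at 1.76%, against 1.43%, and RF2 and RF4 at 1.45%, against 0.957%. RF3 and RF5 differed at 0.476%, against 0.263%, RF2 and RF5 at 0.422%, against 0.658%, and RF1 and RF4 at 0.376%, against 0.305%. All 115 DARs of RF3 and RF5 were higher in RF3, and the split over all peaks is not given here. In the sums per bin described below, 27.9% of gene-poor bins were higher and 0.599% lower in RF3, against 10.3% and 6.50% of all bins. Without the 3 libraries that stood apart the shares were 11.8% for RF1 and RF2, 6.54% for RF2 and RF3, 4.19% for RF1 and RF4, 3.21% for RF2 and RF4, 2.96% for RF2 and RF5 and 1.10% for RF3 and RF5. With near-identical libraries summed, RF2 and RF3 had 0.563%, and the other 5 pairs had between 0.0041% and 0.0621%.

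Peaks called at both TPs mostly changed direction between RF1 and RF3. Of the 5719 DARs at TP1 and 3108 at TP2, 1475 were DARs at both TPs, which is 25.8% of the first list and 47.5% of the second. The direction was opposite in 1471 of them (99.7%) and the same in 4. The reversal was not particular to gene-poor bins, since 6221 of 6236 shared DARs over all peaks (99.8%) and 1986 of 1987 in gene-rich bins (99.9%) were opposite too. RF1 and RF5 shared 712 DARs between the TPs, of which 677 were opposite (95.1%, against 93.9% over all peaks and 96.4% in gene-rich bins). The 50 shared DARs of RF1 and RF4, out of 4980 at TP1 and 91 at TP2, all kept their direction, as did 187 of 191 over all peaks. Tested directly over all 50 libraries, the interaction of RF and TP was called at 13045 of the 24177 peaks (54.0%), against 54.4% of all peaks and 66.8% of those in gene-rich bins.

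In the pairs given here, the signed median difference followed the number of gene starts in the bin and changed sign toward gene-rich bins. For RF1 over RF3 at TP1 the median log2 difference was 0.30 in bins without a gene start, 0.26 with 1 and 0.23 with 2. Beyond the limit of the rule it was 0.16 in bins with 3 starts, 0.14 with 4 to 5, 0.06 with 6 to 9, −0.10 with 10 to 14 and −0.29 with 15 or more. At TP2 the same series ran −0.29, −0.23, −0.21, −0.13, −0.11, −0.04, 0.08 and 0.26. RF3 over RF4 at TP2 gave 0.30, 0.23 and 0.22 in bins with 0, 1 and 2 starts and −0.28 in bins with 15 or more. The 255 gene-poor bins with fewer than 20 peaks, which hold 3009 peaks and are outside the rule, had the largest medians, 0.52 at TP1 and −0.53 at TP2 for RF1 over RF3. No test was made of this series, which is a description across peaks of the same libraries.

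**Figure D1:**
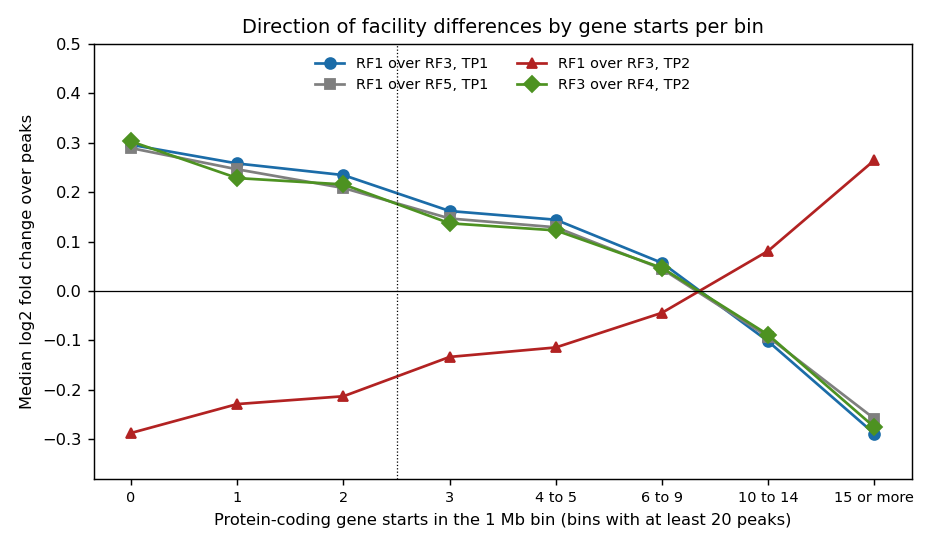
Median log2 difference (y axis) of the peaks in autosomal 1 Mb bins with at least 20 peaks, grouped by their number of protein-coding gene starts (x axis), for RF1 over RF3 and RF1 over RF5 at TP1 and RF1 over RF3 and RF3 over RF4 at TP2, with a dotted line at the limit of the rule. For RF1 over RF3 the medians run from 0.30 to −0.29 at TP1 and from −0.29 to 0.26 at TP2 as gene starts increase from 0 to 15 or more.

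The median kept its sign in each class of level and of place in genes that was examined. In the lowest of 4 abundance classes the median for RF1 over RF3 at TP1 was 0.32, against 0.03 for other peaks of that class, and in the highest 0.24, against −0.08. At TP2 the medians of the same classes were −0.31, against −0.06, and −0.12, against 0.17. Peaks outside genes had a larger median than peaks inside genes, 0.33 and 0.21 at TP1 and −0.35 and −0.16 at TP2. Inside genes over 500 kb the medians were 0.18 and −0.16. The 476 peaks within 2 kb of a gene start had the largest median of these classes at TP1, 0.38, but only −0.08 at TP2.

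The direction was shared by most chromosomes. For RF1 over RF3 at TP1 the median of the peaks was above 0 on 16 of 19 autosomes, from 0.07 on chromosome 19 to 0.40 on chromosome 3. Chromosomes 7, 9 and 17 were the exceptions, with −0.26, −0.03 and −0.04, and their other peaks were lower still, at −0.42, −0.18 and −0.27. On each of the 19 autosomes the gene-poor median exceeded that of the other peaks. At TP2 it was below 0 on 17 of 19, chromosomes 7 (0.17) and 17 (0.01) again being the exceptions, and it lay below that of the other peaks on every autosome. In 114 of the 501 bins every peak had a positive log2 difference at TP1, and in 92 every peak had a negative one at TP2. For RF3 over RF4 at TP2 every peak was positive in 128 bins. Bins of uniform direction were not counted among gene-rich bins or over all bins. Whether such uniformity is particular to gene-poor bins was therefore not tested.

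**Figure D2:**
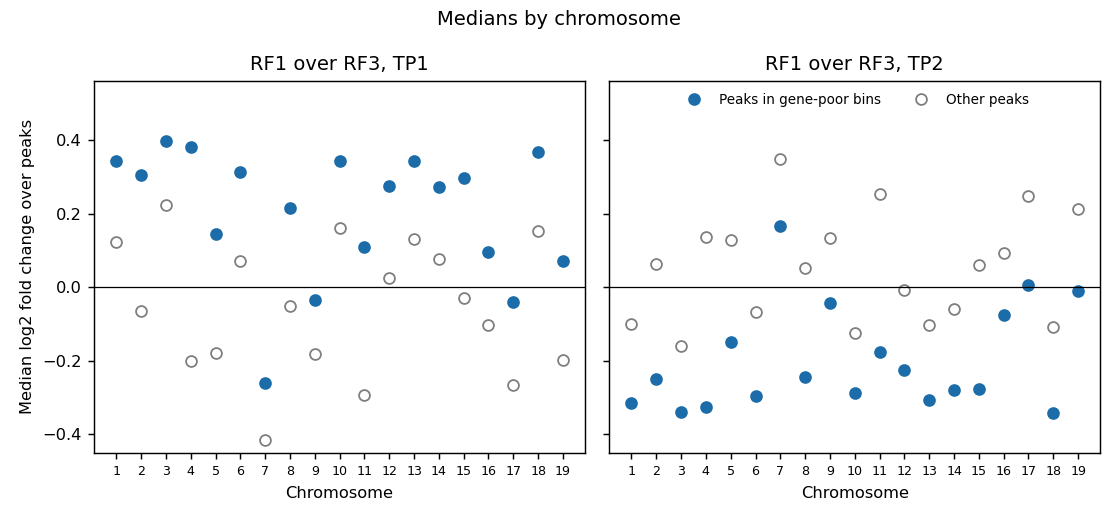
Median log2 difference of RF1 over RF3 for peaks in gene-poor bins and for the other peaks of each autosome, at TP1 and TP2. The gene-poor points lie above the others at TP1 and below them at TP2 on all 19 autosomes, and chromosome 7 has the lowest gene-poor median at TP1 (−0.26) and the highest at TP2 (0.17).

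The share of a library's autosomal counts that fell in gene-poor bins is a score over the peaks, and is given without a test. At TP1 RF1 had 12.7, 10.9, 10.4, 11.9 and 12.9% of its counts there in replicates 1 to 5, against 10.4, 9.87, 9.71, 9.72 and 9.76% in RF3. RF1 spread over more than 2 percentage points and RF3 over less than 1, and the lowest RF1 library (10.45%) lay just above the highest RF3 library (10.36%). RF2 (10.4 to 11%) and RF4 (10.4 to 11.2%) overlapped with RF1, and so did RF5 (9.64 to 10.6%). At TP2 RF1 had 10.7, 10.6, 11.7, 10.9 and 12.2%, against 13.4, 13.5, 13.5, 13.1 and 13.1% in RF3, with no overlap. Within RF1, replicates 3 and 5 were the highest, and they are among the libraries that stood apart. RF5 (12.3 to 12.6%) lay between RF3 and the others, RF2 had 11.7 to 12.2% and RF4 11.1 to 11.3%. The shares of the authors' own called peaks that began in gene-poor bins differed in the same direction between RF1 and RF3, with medians of 17.1% in RF1 and 13.6% in RF3 at TP1 and of 15.3% in RF1 and 18% in RF3 at TP2. At TP1 the mean promoter signal of 4 of 5 astrocyte markers was 3.26 to 3.92 CPM per kb in RF1 and 4.19 to 4.77 in RF3. At TP2 the groups overlapped, with 2.26 to 3.88 in RF1 and 2.45 to 2.71 in RF3. For 2 of 5 microglia markers the ranges in RF1 and RF3 were 3.71 to 3.91 and 3.92 to 4.43 at TP1. At TP2 they were 3.89 to 4.38 and 3.59 to 4.02. The oligodendrocyte and endothelial lists rest on 1 marker each. The part of other cells in the differences between RFs was not tested, and in bulk nuclei fewer cells of a type and less signal per cell cannot be told apart.

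**Figure D3:**
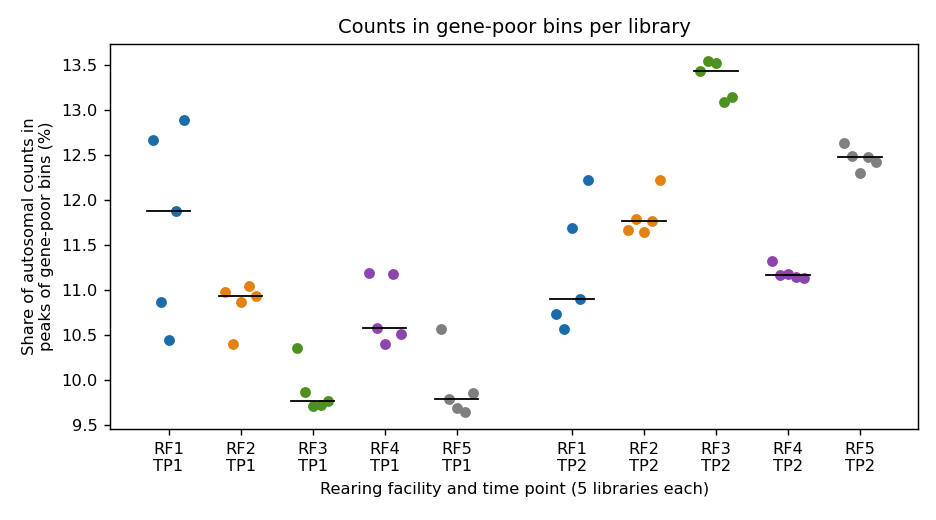
Percentage of autosomal counts that fell in gene-poor bins (y axis), 1 point per library with the group median as a line, by RF at TP1 and TP2, on an axis that does not start at 0. RF1 has the highest median at TP1 (libraries at 10.4 to 12.9%) and RF3 lies above all others at TP2 (13.1 to 13.5%).

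Summed per bin, most megabases depended on RF, gene-poor or not. Of the 501 gene-poor bins 472 (94.2%) did at TP1, against 93.0% of all 2015 bins, and 480 (95.8%) at TP2, against 90.7% (edgeR, FDR below 0.01, no threshold on the fold). Among the 400 gene-rich bins 374 did at TP1 and 383 at TP2. For RF1 and RF3 at TP1, 363 bins were higher in RF1 (72.5%, against 46.7% of all bins) and 74 lower (14.8%, against 39.3%). At TP2, 50 were higher in RF1 (9.98%, against 38.5%) and 384 lower (76.6%, against 42.3%). For RF3 and RF4 at TP2, 371 were higher in RF3 (74.1%, against 43.4%) and 69 lower (13.8%, against 40.1%). Gene-rich bins ran the other way, with 41 higher and 326 lower in RF1 than in RF3 at TP1 and 343 higher and 18 lower at TP2. The bin sums were scaled to each other, so that these counts are relative to the median bin. The median bin difference of RF1 over RF3 at TP1 was 0.25, and 0.39 when the bins were scaled by the factors of the peak fit, which called 412 bins higher and 42 lower in RF1. That scaling was run first and was replaced after its results had been seen.

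The widest bin at TP1 was megabase 101 of chromosome 1, which has 20 peaks and no gene start. Its CPM were 74.9, 57.7, 55.3, 71.4 and 82.1 in RF1, against 45.4, 35.6, 36.0, 37.5 and 39.4 in RF5. The bin and the pair were chosen by this difference, which was 0.81 ± 0.07 on the log2 scale (SE; edgeR adjusted p = 2.2e-08). Overlap of the groups was not counted over all bins. Megabase 71 of chromosome 3, also without a gene start, differed between the same RFs by 0.80 ± 0.09 (adjusted p = 2.5e-07, edgeR). Megabase 80 of chromosome 13, around Arrdc3, differed between RF1 and RF4 by 0.76 ± 0.06 (adjusted p = 3.9e-09, edgeR).

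At TP2 the widest bin was megabase 101 of chromosome 10, which holds the start of Mgat4c, a glycosyltransferase. It had 52.1, 46.0, 68.9, 53.4 and 68.8 CPM in RF1, against 103, 98.0, 90.4, 87.4 and 90.8 CPM in RF3. RF1 replicates 3 and 5 were the highest of their group here too but remained below RF3, and the log2 difference was −0.73 ± 0.08 (adjusted p = 5.9e-07, edgeR). At TP1 the same bin had 80.8, 62.6, 56.6, 76.2 and 88.0 CPM in RF1, against 54.5, 50.3, 48.8, 49.8 and 46.5 CPM in RF3, the opposite order. Megabase 17 of chromosome 18 (0.69 ± 0.09, adjusted p = 4.9e-07) and megabase 82 of chromosome 5 (0.66 ± 0.05, adjusted p = 7.1e-09; edgeR) were higher in RF3 than in RF4.

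The 3 bins with most peaks lie in very long neuronal genes. Those on chromosomes 16 and 7 went against the common direction, and the one on chromosome 11 did so only in part. Megabase 6 of chromosome 16, with 144 peaks and no gene start, had 560, 629, 709, 596 and 473 CPM in RF1 at TP1, against 858, 857, 858, 793 and 857 CPM in RF4. RF1 was lower than RF4, the widest pair of this bin, by −0.51 ± 0.06 (adjusted p = 8.6e-07, edgeR). At TP2 it differed most between RF3 and RF4 (−0.25 ± 0.05, adjusted p = 5.3e-05, edgeR). Megabase 91 of chromosome 7 (148 peaks) was lower in RF1 than in RF4 at TP1, by −0.37 ± 0.07 (adjusted p = 0.00015, edgeR). Megabase 36 of chromosome 11, with 169 peaks around the start of Tenm2, varied least of these, with −0.17 ± 0.03 for RF1 over RF4 at TP1 (adjusted p = 0.00014, edgeR). Its median CPM at TP1 were nearly level in RF1 (948), RF3 (950) and RF5 (950). At TP2 RF1 (1000) was below RF3 (1048), the common direction of that pair, and RF3 was below RF4 (1117), the opposite of the common one.

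Long genes split into groups of opposite direction. Among the 51 genes with at least 60 peaks in gene-poor bins, the median log2 difference of RF1 over RF3 was above 0 in 36 at TP1 and in 16 at TP2. For comparison, 10.6% of all peaks were DARs higher in RF1 than in RF3 at TP1 and 9.5% were lower, and the shares of gene-poor peaks are given above. At TP1, RF1 exceeded RF3 at all 69 peaks of Ppfia2, a liprin of the presynaptic active zone (median 0.54, 38 DARs higher and 0 lower). Lrrc4c, a netrin-G ligand of the synapse, had all 70 peaks above 0 (median 0.43, 26 higher), and Pcdh9, a protocadherin, all 65 (median 0.38, 20 higher). Ctnna2, a catenin that links cadherins to actin (median 0.42, 33 of 104 higher), Grik2, a kainate receptor subunit (0.41, 24 of 61 higher), and Ptprd, a presynaptic receptor phosphatase (0.38, 35 of 126 higher), followed. None of these 6 genes had a DAR lower in RF1.

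In another set the median of RF1 over RF3 was below 0 at TP1. Asic2, a proton-gated channel, had a median of −0.32 (12 of 94 peaks lower, 1 higher) and Tenm4, a teneurin, −0.25 (5 of 106 lower). Auts2 (4 of 142 lower), Rbfox1 (1 of 212 lower) and Csmd1 (4 of 197 lower, 1 higher) had medians of −0.19, −0.12 and −0.12. Except in Asic2, the DARs lower in RF1 were a smaller share than the 9.5% of all peaks, so that this set rests on its medians.

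At TP2 the medians of these 11 genes were on the other side of 0. Over all peaks 4.54% were DARs higher in RF1 than in RF3 at TP2 and 5.59% were lower. In the first set Lrrc4c and Ptprd had medians of −0.39 and −0.38 (15 of 70 and 24 of 126 peaks lower in RF1, 0 higher), Ppfia2 −0.24 (3 of 69 lower), and Ctnna2, Grik2 and Pcdh9 −0.30, −0.29 and −0.29 (7, 8 and 5 lower). In the second set Auts2 and Rbfox1 had medians of 0.22 and 0.18, with 4 and 8 DARs higher in RF1 and 0 lower. Csmd1, Asic2 and Tenm4 were nearer to 0, at 0.10, 0.07 and 0.03, and of these Asic2 alone had any DARs (2 higher). Dlg2, with −0.06 at TP1, had the median of 0.26 (8 higher, 0 lower). Lsamp was near 0 at both TPs, with medians of −0.01 at TP1 and 0.02 at TP2. These genes were picked by their number of peaks, and the examples after their values were seen.

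The promoters of genes in gene-poor bins were mostly accessible. Of 420 protein-coding genes with a known strand, 354 had a tested peak within 2 kb of the start, on 348 distinct peaks. At TP1, 315 of these peaks depended on RF (90.5%, against 88.8% of 10033 other promoter peaks), and 242 at TP2 (69.5%, against 69.0%). The median for RF1 over RF4 at TP1 was 0.63, against 0.23 for the other promoters, with 221 DARs higher in RF1 and 1 lower (2385 and 465 among the others). For RF1 over RF3 the median was 0.38 at TP1, against −0.06, and −0.05 at TP2, against 0.25. Of the 5 RFs at TP1, RF4 had the lowest promoter signal: counts within 2 kb of gene starts made up 29.3 to 32.6% of the autosomal counts in RF1 and 26.3 to 27.1% in RF4. The neuron marker promoters averaged 17.1 to 20.9 CPM per kb in RF1 and 13.3 to 15.3 in RF4. The part of this lower promoter signal in the differences of single promoters was not tested.

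The 12 promoters with the widest range at TP1 were all highest in RF1 and lowest in RF4. Several belong to regulators of transcription. Nr2f1 (Coup-TFI), a nuclear receptor that patterns cortex and hippocampus, had a peak at its start (chr13:78197896-78199574) with 27.9, 28.7, 24.3, 23.3 and 29.0 CPM in RF1, against 11.4, 9.87, 9.72, 10.6 and 10.3 CPM in RF4. The lowest RF1 library was above every RF4 library, and the log2 difference was 1.36 ± 0.07 (SE; adjusted p = 6.6e-23, edgeR). RF2 (15.9 to 20.3 CPM), RF3 (13.7 to 15.5) and RF5 (13.6 to 15.5) lay between. At TP2 Nr2f1 ranged over 13.3 to 19.3 CPM in RF1, against 11.3 to 12.3 CPM in RF4.

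Atp2b1, a calcium pump of the plasma membrane, was the strongest of the 12 in signal. Its peak (chr10:98913758-98915669) had 126, 143, 127, 141 and 161 CPM in RF1, against 54.4, 57.4, 55.9, 57.6 and 53.6 CPM in RF4, a log2 difference of 1.32 ± 0.06 (adjusted p = 4.4e-25, edgeR). At TP2 the values were 67.2 to 92.2 CPM in RF1, against 63.3 to 66.4 CPM in RF4.

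Arrdc3, an arrestin-like adaptor for receptor traffic, lies in the megabase of chromosome 13 described above. Its promoter peak (chr13:80882989-80883706) had 32.3, 38.4, 32.3, 39.8 and 49.8 CPM in RF1, against 13.9, 15.5, 15.2, 19.9 and 13.9 CPM in RF4 (1.29 ± 0.08, adjusted p = 4.8e-20, edgeR). At TP2 the RF1 libraries split, with 26.6 and 26.4 CPM in replicates 3 and 5 and 14.9 to 17.8 CPM in the rest, against 15.3 to 19.5 CPM in RF4.

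The remaining 9 promoters differed between RF1 and RF4 by 1.11 to 1.24, with standard errors of 0.06 to 0.09 and edgeR adjusted p-values of at most 1.5e-17. They were Cxxc4 (1.24), an inhibitor of Wnt signalling, Tbl1xr1 (1.21) and Tle1 (1.19), which are parts of co-repressor complexes, Ptp4a1, a phosphatase, Btg1 (1.15), an antiproliferative factor, Pou3f2, a transcription factor of neural progenitors, Diaph3 (1.13), a formin, Dipk2a (1.13) and Rasa1 (1.11), a GTPase-activating protein for Ras. In each of them the lowest RF1 library was above the highest RF4 library, but they were chosen by their range. Of all promoter peaks, 221 of 348 in gene-poor bins and 2385 of 10033 others were DARs higher in RF1 than in RF4. Overlap of the groups was not counted over all promoters.

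At TP2 the widest promoters were of more than 1 kind and most were weak. Sall1, a zinc-finger transcription factor, had a peak at its start (chr8:89041956-89044286) with 9.54, 10.2, 8.67, 10.3 and 6.67 CPM in RF2, against 5.22, 4.21, 5.14, 4.53 and 3.58 CPM in RF5. RF2 replicate 5 was the lowest of its group but above all RF5 libraries, and the log2 difference was 1.01 ± 0.12 (adjusted p = 1.5e-07, edgeR). At TP1 RF3 was the highest (9.63 to 11.6 CPM) and RF4 the lowest (4.33 to 6.07 CPM) for this peak. Diaph3 was 8.96 to 10.5 CPM in RF4, against 14.7 to 17 CPM in RF5 (−0.76 ± 0.09, adjusted p = 2.2e-08, edgeR).

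The other 6 had at most 7.40 CPM in any library of the compared RFs. Mef2c, an activity-dependent transcription factor of neurons, was 1.92 to 2.65 CPM in RF3, against 0.964 to 1.85 CPM in RF4 (0.85 ± 0.20, edgeR adjusted p = 0.0007), and lost its call when near-identical libraries were summed (adjusted p = 0.013) or without replicate 1 (0.010). Tnni3k (RF1 over RF3 −0.95), a kinase, Tmem51 (RF1 over RF5 1.00) and Slco6d1 (RF3 over RF4 1.09), a transporter, kept their calls in every alternative. Dnaaf6 (RF2 over RF3 −0.84) and Sash1 (RF2 over RF5 1.08) each lost theirs in some, Dnaaf6 with near-identical libraries summed (adjusted p = 0.013) and without replicate 2 (0.017) and Sash1 with adjusted p from 0.038 to 0.16 in 4 alternatives (edgeR).

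Most promoters of genes of neuronal function that start in gene-poor bins depended on RF. Of the synaptic adhesion list, 25 of 26 promoters with a peak depended on RF at TP1 and 21 of 26 at TP2. Slitrk5 (50.2 to 69.2 CPM in RF1, against 25.8 to 29.8 CPM in RF4) and Negr1 (79.1 to 93.0 CPM in RF1, against 40.8 to 45.3 CPM in RF4) differed at TP1 by 1.07 ± 0.06 and 0.97 ± 0.06 (edgeR adjusted p = 1e-20 and 5.3e-21). At TP2 the widest were Lrrtm3 (−0.59 ± 0.10, adjusted p = 2.5e-05) and Slitrk3 (−0.49 ± 0.06, adjusted p = 2.3e-08, edgeR), lower in RF4 than in RF5. Cadherins and protocadherins were called at 8 of 8 promoters at TP1 and 7 of 8 at TP2, led by Cdh9, with 8.61 to 15.6 CPM in RF1, against 5.19 to 6.81 CPM in RF4 at TP1.

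Axon guidance genes were called at 8 of 9 promoters at both TPs. Epha7, an ephrin receptor, had 63.4 to 82.9 CPM in RF1, against 32.0 to 37.4 CPM in RF4 at TP1, and 37.3 to 41.9 CPM in RF4, against 54.3 to 57.7 CPM in RF5 at TP2. Developmental transcription factors were called at 14 of 16 promoters at TP1 and 12 of 16 at TP2, among them Meis2, with 31.5 to 37.0 CPM in RF1, against 16.2 to 18.1 CPM in RF4 at TP1. Neurotransmitter and peptide receptors were called at 7 of 7 and 4 of 7, and Gabra5, a GABA-A receptor subunit, was higher in RF1 (29.8 to 33.8 CPM) than in RF3 (20.9 to 23.5 CPM) at TP2. Ion channels were called at 4 of 5 and 3 of 5. Over all gene-poor promoter peaks the shares were 90.5% and 69.5%. Whether a list differed from them was not tested, most lists rest on few genes, and the lists were chosen with earlier results of these data known.

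Gene-poor bins also hold miRNA genes of neurons. Of 105 miRNA genes in these bins, 57 had a tested peak within 2 kb, on 48 distinct peaks, and 28 of those peaks depended on RF at TP1 (58.3%, against 59.1% of all peaks) and 29 at TP2 (60.4%, against 30.8%). Peaks at gene starts were called more often than all peaks at both TPs, as given above, and the miRNA peaks were not compared with them by a test. The mature miRNAs of well-known neuronal loci among them are shown in full, since a locus is recognized by its product, with the seed (bases 2 to 8) in capitals. These loci were chosen after the files had been seen, and the sequences come from RefSeq (GRCm38.p6). No 2 of them share a seed.
miR-9-5p (Mir9-2, chr13:83738821-83738843): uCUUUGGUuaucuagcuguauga
miR-137-3p (Mir137, chr3:118433901-118433923): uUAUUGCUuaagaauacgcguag
miR-125b-5p (Mir125b-2, chr16:77646279-77646300): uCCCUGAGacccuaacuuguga
miR-218-5p (Mir218-1, chr5:48223966-48223986): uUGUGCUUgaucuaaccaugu
miR-181a-5p (Mir181a-1, chr1:137966468-137966490): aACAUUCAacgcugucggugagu
miR-128-3p (Mir128-2, chr9:112118644-112118664): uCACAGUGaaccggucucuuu
The peak over Mir9-2, a locus of a miRNA that restrains neural progenitors, had 41.8, 36.3, 34.3, 39.8 and 49.3 CPM in RF1 at TP1, against 21, 20.3, 20.1, 21.2 and 20.5 CPM in RF4. The groups were far apart, with a log2 difference of 0.96 ± 0.07 (adjusted p = 1.8e-18, edgeR). At TP2 it was lower in RF4 (23.9 to 27.6 CPM) than in RF5 (32.9 to 37.4 CPM). The peak 9 bp from Mir124a-2, one of the loci of the neuronal miR-124, had 37.9, 30.4, 27.6, 31.6 and 37.8 CPM in RF1 at TP1, against 17.8, 16.6, 15.1, 17.1 and 14.9 CPM in RF4 (1.01 ± 0.07, adjusted p = 2.2e-18, edgeR). Mir125b-2 and Mir137 differed between the same RFs by 0.82 ± 0.06 and 0.67 ± 0.06 (edgeR adjusted p = 2.4e-17 and 5.8e-14). Mir128-2 did not pass the test at TP1 (edgeR FDR of 0.65, 19 to 23.6 CPM over the RFs) but did at TP2, where it was lower in RF3 than in RF4 (−0.36 ± 0.07, adjusted p = 5e-05).

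**Figure D4:**
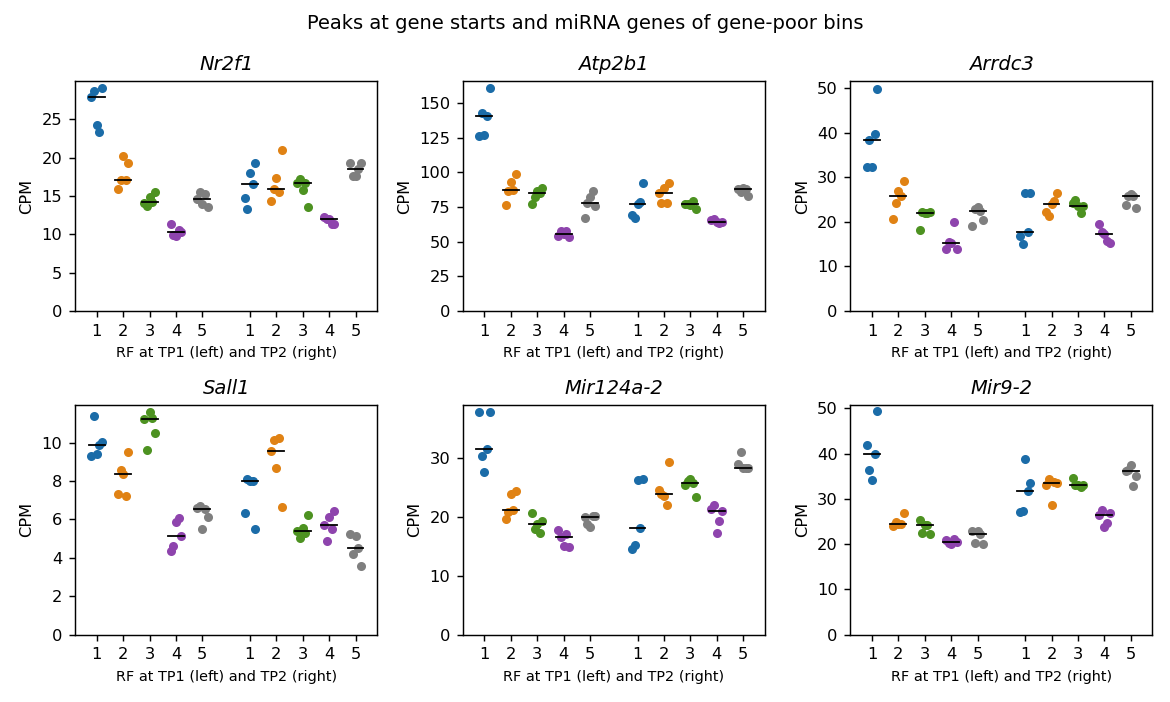
CPM (y axis) of the peaks at the starts of Nr2f1, Atp2b1, Arrdc3 and Sall1 and at Mir124a-2 and Mir9-2, 1 point per library with the group median as a line, by RF at TP1 (left) and TP2 (right) in each panel. At TP1 RF1 libraries lie above all RF4 libraries in every panel, as in Nr2f1 with 23.3 to 29.0 CPM in RF1 and 9.72 to 11.4 CPM in RF4.

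The largest differences of single peaks at TP1 were in the body of Lpp, a LIM protein of cell adhesions, on chromosome 16. By rank, 3 of the 5 widest peaks with at least 1 CPM lay there. The bin (megabase 24) had 62 peaks and 1 gene start, and 10 of its peaks were DARs higher in RF2 than in RF5 at TP1, with 0 lower. A run of 5 neighbouring peaks within 41008 bp differed by log2 values of 1.58 to 2.89. Their summed CPM at TP1 were 23.2, 22.5, 21.9, 23.7 and 23.3 in RF2, against 6.17, 4.75, 4.19, 4.68 and 4.46 in RF5. RF3 (20.4 to 23.5 CPM) was near RF2, whereas RF1 (12.4 to 13.3) and RF4 (12.3 to 15) lay between. The widest of the 3 (chr16:24568775-24570924) had 5.28 to 6.18 CPM in RF2, against 0.698 to 1.40 CPM in RF5 (2.54 ± 0.12, adjusted p = 2.7e-23, edgeR).
At TP2 none of the 62 peaks was a DAR between RF2 and RF5. The summed CPM were 27.2, 24.5, 30.9, 27.1 and 23.5 in RF2, against 25.6, 23.2, 23.5, 23.9 and 24.7 in RF5. RF1 was the lowest group then, with 17.4, 17.4, 26.2, 19.3 and 23.2 CPM, replicates 3 and 5 being the high ones. The run of 5 peaks was chosen after its values were seen, and its sum was not tested. The interaction of RF and TP was called at the 3 peaks named by rank (edgeR FDR of 1.4e-20, 9.3e-21 and 1.4e-20).

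**Figure D5:**
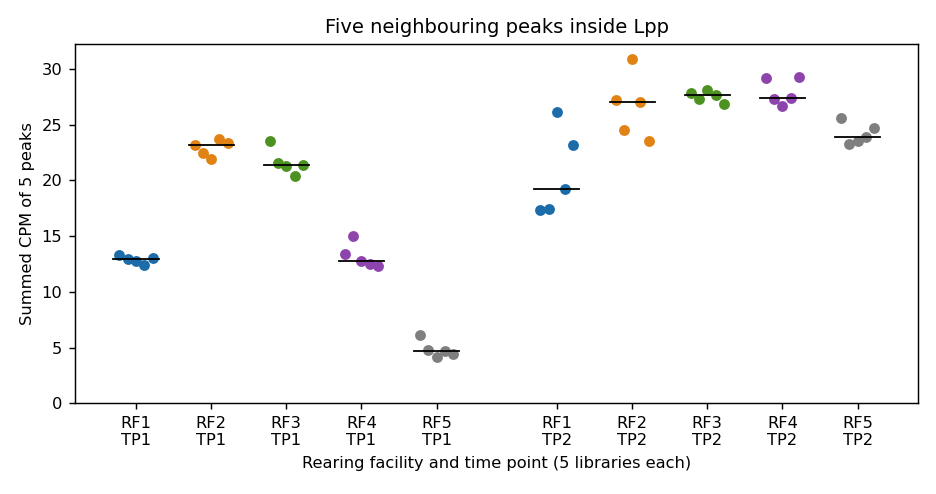
Summed CPM of 5 neighbouring peaks in Lpp (y axis), 1 point per library with the group median as a line, by RF at TP1 and TP2. RF5 libraries lie at 4.19 to 6.17 CPM at TP1, below all others, and at 23.2 to 25.6 CPM at TP2.

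The other peaks among the widest lay in 6 further bins. Each is given in its widest pair of RFs, so that the groups shown were chosen to lie apart. At TP1 a peak in Slc7a11 (chr3:50421440-50422485), the gene of the cystine/glutamate exchanger, had a median of 3.68 CPM in RF3, against 0.9 CPM in RF4 (2.01 ± 0.14, adjusted p = 1.7e-16, edgeR). A peak outside genes (chr6:31803143-31803505) had 2.18 to 3.23 CPM in RF1, against 0.422 to 0.802 CPM in RF4 (2.02 ± 0.17, adjusted p = 4.2e-15, edgeR). At TP2 the 5 widest peaks were each called in only 2 of the 10 groups. They had log2 differences of −1.91 to 1.81, and the largest in size (chr3:21070574-21071019), 703397 bp from the nearest gene start, had 0.267 to 0.682 CPM in RF1, against 1.44 to 2.27 CPM in RF3 (adjusted p = 1.7e-07, edgeR). Their means over the TP2 libraries were only 1.00 to 1.47 CPM, near the floor of 1 CPM. A peak can enter the count table, and pass that floor, through a group in which it is high. The differences and p-values of these 5 peaks are thus not independent of their choice. In 4 of the 5 bins around these peaks the DARs of the same pair, the named peak included, ran in 1 direction. These were 7 lower of 39 peaks in megabase 21 of chromosome 3, 9 higher of 44 in megabase 50 of that chromosome, 9 higher of 69 in megabase 142 of chromosome 4 and 8 higher of 29 in its megabase 84, with bin medians of −0.33, 0.38, 0.25 and 0.49. In the fifth bin, megabase 103 of chromosome 8, 1 of 60 peaks was higher and 2 were lower. In megabases 21, 50 and 84 the pair was RF1 and RF3 or RF3 and RF4, in which most DARs of all gene-poor bins ran the same way. In megabase 142 it was RF1 and RF5, in which most ran the other way. Whether these bins differ from other gene-poor bins was not tested.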

How the data were processed

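Per the labels and the study's methods, the authors aligned trimmed reads to GRCm38 with Bowtie2, marked duplicates with Picard 1.140 and called broad peaks in each library with MACS2 2.1.4. The authors merged the peaks over the 10 groups and deposited the raw counts of reads per merged peak and library, which were the base of every test. The deposited table of normalized counts was identical to the raw counts and was not used. In the deposited peak lists of each library the score and the fold enrichment (ratio over background) were not used, and the −log10 q served for 1 alternative only. DESeq2 was the authors' tool for the comparisons.

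Peaks were fitted here at each TP with edgeR 4.0.16 in R 4.3.3 (TMM, filterByExpr, robust quasi-likelihood test) with RF and replicate number. The study's methods used RF and processing batch, but no label gives a library's batch, and that the replicate number stands for it is an assumption. p-values were adjusted by Benjamini-Hochberg over all tested peaks. Of the 24177 peaks, 24174 were tested at TP1, 24173 at TP2 and 24177 in the interaction. Pairs are the lower RF number over the higher one. Bin sums were scaled by TMM over the bins. The TMM factors of the peak fit were the first scaling run and were replaced after its results had been seen, and both are given. CPM are counts scaled to 1000000 per library with TMM factors. Alternatives were DESeq2 1.42.0, its size factors in edgeR, a loess offset, no filter, no replicate block, other bin definitions, leaving out libraries, and summing near-identical libraries. The scripts were tested on simulated data.

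Named promoters were the 12 at TP1 and the 8 at TP2 with the largest range between RFs, named peaks the 5 at each TP with at least 1 CPM and named bins the 3 at each TP, all among those called for RF, with the 3 bins of most peaks. The peaks, gene lists and tests were chosen with earlier results of these data known. The gene start of the rule is the lower RefSeq coordinate of the gene, and the start by strand an alternative. Promoter and miRNA sequences come from RefSeq tables of GRCm38.p6. Sequences of peaks were not analysed here. Oligodendrocyte lineage, microglia and endothelial markers had a peak assigned for 1 of 7, 2 of 5 and 1 of 4 genes, and no olfactory or vomeronasal receptor gene of the list started in these bins (0 of 1260). p-values measure the spread between the libraries of a group.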

Additional observations from a re-analysis of the deposited data

Results flagged for a closer look

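In 110 groups of 5 libraries that were screened, 14 had 1 library set apart from the rest, where chance gives about 1 in 20. For the share of counts in gene-poor bins these were RF2 replicate 2 (10.4%), RF3 replicate 1 (10.36%) and RF5 replicate 1 (10.57%) at TP1, and RF2 replicate 5 (12.22%) and RF4 replicate 1 (11.33%) at TP2. RF5 replicate 1 at TP1 also stood apart in the 5 peaks of Lpp (6.169 CPM). At the Arrdc3 start RF3 replicate 1 (18.11 CPM) and RF4 replicate 4 (19.9 CPM) did so at TP1. At TP2 Mir124a-2 had RF5 replicate 2 (31.09 CPM), and Mir9-2 had RF2 replicate 3 (28.53 CPM) and RF3 replicate 1 (34.59 CPM). In megabase 6 of chromosome 16 at TP1 they were RF3 replicate 1 (746.8 CPM), RF4 replicate 4 (793.2 CPM) and RF5 replicate 1 (824.4 CPM).

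The differences between RFs changed with TP at 53.96% of the peaks in gene-poor bins, by the interaction of RF and TP in edgeR. Among the named promoters the interaction FDR was 8.8e-20 for Atp2b1, 1.6e-16 for Btg1, 1.5e-14 for Tmem51, 2.2e-14 for Tle1, 2.7e-14 for Tbl1xr1, 4.6e-14 for Ptp4a1, 2e-13 for Nr2f1 and 2.1e-13 for Diaph3. It was 5.2e-12 for Rasa1, 9.7e-12 for Dipk2a, 3.8e-11 for Sall1, 4.7e-10 for Arrdc3, 1.6e-09 for Cxxc4, 1.9e-08 for Pou3f2, 3.6e-08 for Tnni3k, 7.8e-07 for Dnaaf6, 6.1e-06 for Slco6d1 and 0.005 for Sash1. At miRNA loci it was 6.9e-16 for Mir9-2, 1.1e-13 for Mir137, 1.2e-12 for Mir125b-2, 5.2e-12 for Mir124a-2, 3.5e-05 for Mir218-1, 0.0001 for Mir181a-1 and 0.0016 for Mir128-2. The 3 Lpp peaks had 1.4e-20, 9.3e-21 and 1.4e-20 in order of position, the Slc7a11 peak 1.3e-11 and the peak on chromosome 6 8.4e-12. The widest peaks of TP2 had 1.4e-09 and 0.00026 on chromosome 3, 6.8e-11 in Tmem51, 4.9e-11 in Bnc2 and 0.00094 on chromosome 8.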

How the results depend on the processing

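Called differences kept their direction. Of the pair medians, RF3 over RF5 at TP1 and RF1 over RF4 at TP2, both 0.00 as reported, changed sign in 10 of 15 and 8 of 16 alternatives, over −0.01 to 0.01 and −0.07 to 0.02, and no other did. Of the counts and shares over the alternatives 370 were within 1.5 times the reported value (or 1 SD) and 86 moved, and of the medians 305 and 5. The median of RF1 over RF3 ranged over 0.22 to 0.30 at TP1 and −0.31 to −0.20 at TP2, and that of RF3 over RF4 at TP2 over 0.21 to 0.30. The cause of the moves below was not tested, except that summing leaves fewer samples. DARs are given as percent of the tested gene-poor peaks. DESeq2 gave 0.954 for RF1 and RF4 and 0.0622 for RF3 and RF5 at TP2, and the loess offset 0.0414 for RF3 and RF5. In bins with no gene start RF3 and RF4 had 0.874 at TP1. With near-identical libraries summed (no replicate block), TP1 gave 0.637 for RF2 and RF3, 0.662 for RF3 and RF4 and 2.46 for RF3 and RF5. At TP2 summing gave 13.5 for the RF effect, 16.5 for any pair, 0.0414 for RF1 and RF2, 0.0165 for RF1 and RF4, 3.71 for RF1 and RF5, 0.563 for RF2 and RF3, 0.0041 for RF2 and RF4 and for RF2 and RF5, 8.64 for RF3 and RF4, 0.0621 for RF3 and RF5 and 1.82 for RF4 and RF5. Without the 3 libraries that stood apart, TP2 gave 49.7 for the RF effect, 42.2 for any pair, 11.8 for RF1 and RF2, 26.8 for RF1 and RF3, 4.19 for RF1 and RF4, 20.2 for RF1 and RF5, 6.54 for RF2 and RF3, 3.21 for RF2 and RF4, 2.96 for RF2 and RF5 and 1.10 for RF3 and RF5. Leaving out each replicate in turn gave, at TP1, 2.99 to 10.6 for RF1 and RF2, 0.823 to 2.02 for RF2 and RF3 and 5.00 to 7.48 for RF2 and RF5. At TP2 the highest value came without replicate 5 in every case, and it gave 13.7 to 37.8 for the RF effect, 14.5 to 35.0 for any pair, 0 to 7.33 for RF1 and RF2, 4.70 to 21.6 for RF1 and RF3, 0.012 to 1.88 for RF1 and RF4, 0.798 to 14.5 for RF1 and RF5, 1.17 to 4.96 for RF2 and RF3, 0.347 to 2.09 for RF2 and RF4, 0.054 to 2.04 for RF2 and RF5, 0.128 to 0.530 for RF3 and RF5 and 2.85 to 5.01 for RF4 and RF5. With called peaks of −log10 q of at least 3 the median share in gene-poor bins was 15.8, 14.4, 12.7, 12.6 and 12.1% at TP1, in the order of RF numbers, and 12.9, 14.6, 15.8, 13.6 and 16% at TP2. With all peaks as denominator the count share of RF4 and RF5 at TP2 was 11% and 12.3%. Bin sums scaled by the factors of the peak fit, the first scaling run, gave 412 bins higher and 42 lower in RF1 than in RF3 at TP1. At TP2 they gave 45 and 392 for that pair, and 392 higher and 48 lower in RF3 than in RF4. The scaling of the main text replaced this one after its results had been seen. The start by strand was also chosen after seeing the data. Same-numbered libraries deviated together with a median correlation of 0.03 at TP1 and 0.00 at TP2, and 9 and 3 of 25 libraries matched best with their own number, so that the numbers are not shown to pair the samples; the replicate block was fitted in place of the study's processing batch, which the labels do not give, and without the replicate block 51.7% of the peaks depended on RF at TP1 and no share moved beyond 1.5 times.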
